A study of Homo sapiens with 26 samples.

Results

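The 10 chemokine genes described here are CXCL1, CXCL2, CXCL3, CXCL8, CXCL10, CXCL16, CCL5, CCL20, CCL26 and CCL28 in LoVo cells, a human colorectal cancer line. They are the rows with these symbols in both deposited expression tables, which list 18165 and 17734 genes, and all 10 passed the filter on low values in each table (12607 and 12463 genes passed). They were chosen by values of these data: the comparison of E545K with wild-type cells in DMSO and the comparisons of palbociclib with DMSO in each line had named several of them. Those contrasts are therefore given as a description with no test, and tests are kept for the other contrasts, which share libraries with them. E545K against wild type under palbociclib is the exact sum of such contrasts, so it too is given with no p. H1047R against wild type under palbociclib combines 2 of them with the tested difference in DMSO. The difference in response to conditioned medium between E545K and wild type contains the DMSO contrast of these lines that chose genes. The p-values and calls of both are therefore not independent of the choice, wherever they are given below. The other tests of the first table use DMSO libraries that also entered the choosing contrasts. Their p-values and calls are therefore not fully independent of the choice either.

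RNA sequencing was done on 26 libraries in 13 groups of 2. The lines were LoVo with wild-type PIK3CA and LoVo into which PIK3CA E545K or PIK3CA H1047R had been brought with lentiviral vectors. The product of PIK3CA is the catalytic p110α subunit of a phosphoinositide kinase, and the series asks how its mutation changes the response to palbociclib, an inhibitor of CDK4 and CDK6 that was used to induce senescence. The first table holds each of the 3 lines in DMSO for 72 hours, in 0.5 µM palbociclib for 72 hours, and in conditioned medium from senescent cells (label S-CM). The second table holds the E545K and H1047R lines in 0.5 µM palbociclib and in 0.5 µM palbociclib with 4 µM erlotinib, an inhibitor of the EGF receptor, for 48 hours. Clone 2 of E545K and clone 3 of H1047R are named for the palbociclib experiment alone, so each mutant line there is 1 clone. The hours in conditioned medium, the line that made it, how long the second table's cells had palbociclib alone, and the clones in these other groups are not given in the labels. The labels also mention a control collected at 48 hours without naming its libraries. No group had medium from cells that were not senescent, so raised and lowered with conditioned medium mean only that the level differed from DMSO.

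Chemokines are small secreted proteins that draw leukocytes along a gradient by binding receptors of the G protein-coupled family. CXCL1, CXCL2, CXCL3 and CXCL8 bind CXCR2 and attract neutrophils, CXCL10 binds CXCR3 and attracts T cells, CCL5 attracts T cells and monocytes, CCL20 binds CCR6, CCL26 (eotaxin-3) binds CCR3 and attracts eosinophils, CCL28 binds CCR10 at mucosal surfaces, and CXCL16 is made as a membrane protein that is shed. In epithelial cells NF-κB is a known inducer of many of these genes, interferons induce CXCL10 and CCL5, interleukins 4 and 13 induce CCL26 through STAT6, and several chemokines belong to the set of proteins that senescent cells secrete.

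Of the 10 genes, 5 lie on chromosome 4: in GRCh38.p14 (RefSeq) CXCL8 spans chr4:73740569-73743716, CXCL1 chr4:73869393-73871308, CXCL3 chr4:74036589-74038689, CXCL2 chr4:74097040-74099195 and CXCL10 chr4:76021118-76023497. CCL20 lies at chr2:227813842-227817556, CCL26 at chr7:75769524-75791597, CCL28 at chr5:43356975-43412391, CXCL16 at chr17:4733533-4739928 and CCL5 at chr17:35871491-35880360. The bases just before the start of 6 of them are printed. CXCL1, CXCL2 and CXCL3 went together in the first table (r on the log scale of 0.98 to 0.99, 18 libraries). The r to these 3 genes was 0.76 to 0.83 for CCL20, 0.51 to 0.58 for CXCL10 and 0.23 to 0.30 for CXCL8. In the second table CXCL8 went with them, as given below. These r carry no test. They run 5′ to 3′ on the strand of the gene and end at the last base before its start, from RefSeq in GRCh38.p14. CXCL1 is chr4:73869263-73869392 (+), CXCL2 is chr4:74099196-74099325 (-), CXCL3 is chr4:74038690-74038819 (-), CXCL8 is chr4:73740424-73740568 (+), CXCL10 is chr4:76023498-76023727 (-) and CCL20 is chr2:227813712-227813841 (+). Capitals mark GGAATTTCC, a form of the NF-κB site, on either strand. They also mark the AP-1 letters TGANTCA in CXCL8 and the interferon-response letters GAAANNGAA in CXCL10. Other forms of these sites are left in small letters.
CXCL1: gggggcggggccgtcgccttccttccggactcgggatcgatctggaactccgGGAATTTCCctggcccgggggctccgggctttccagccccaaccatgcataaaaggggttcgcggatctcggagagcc
CXCL2: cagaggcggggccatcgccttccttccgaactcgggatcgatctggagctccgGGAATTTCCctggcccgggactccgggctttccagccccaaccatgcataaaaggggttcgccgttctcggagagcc
CXCL3: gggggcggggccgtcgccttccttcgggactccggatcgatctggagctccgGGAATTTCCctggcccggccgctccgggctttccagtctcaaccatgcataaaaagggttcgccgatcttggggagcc
CXCL8: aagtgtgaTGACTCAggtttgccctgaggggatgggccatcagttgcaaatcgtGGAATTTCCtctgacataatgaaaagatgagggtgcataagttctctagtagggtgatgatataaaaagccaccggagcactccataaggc
CXCL10: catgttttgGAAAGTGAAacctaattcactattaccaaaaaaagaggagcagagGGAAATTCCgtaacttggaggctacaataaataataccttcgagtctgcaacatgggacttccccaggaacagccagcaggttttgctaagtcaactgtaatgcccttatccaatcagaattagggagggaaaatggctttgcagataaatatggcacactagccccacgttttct
CCL20: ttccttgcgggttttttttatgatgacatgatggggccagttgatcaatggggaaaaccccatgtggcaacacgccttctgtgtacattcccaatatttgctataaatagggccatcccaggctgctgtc

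A promoter was found for 8 of the 10 genes in the RefSeq table, without CXCL16 and CCL5. Over the 250 bases before the start, GGAATTTCC or its reverse complement stood in 5 of these 8 (CXCL1, CXCL2, CXCL3, CXCL8 and CXCL10), and in 0.413% of 35116 promoters. In CXCL1 and CXCL3 it covered bases 78 to 70 before the start, in CXCL2 bases 77 to 69 and in CXCL8 bases 91 to 83, all on the strand of the gene. In CXCL10 the match lay on the other strand, at bases 176 to 168. TGANTCA stood in 1 of the 8 (CXCL8, bases 137 to 131) and in 6.57% of promoters. GAAANNGAA stood in 3 (CXCL2, CXCL3 and CXCL10, the last at bases 221 to 213) and in 6.88%. The STAT letters TTCNNNGAA stood in 0 of the 8 and in 6.57% of promoters. Aligned over 130 bases, the promoter of CXCL1 was 92.4% identical to that of CXCL2 and 91.5% to that of CXCL3, against 46.0% to that of CXCL8 and 47.5% to that of CCL20. These are matches of exact letters, and other forms of the NF-κB site were not searched. A promoter without a match, such as that of CCL20, may hold another form. Binding was not measured.

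Values are FPKM, fragments per kilobase of transcript scaled to library size, so levels can be compared between genes. Library sums ran from 441643 to 524290 FPKM and 11453 to 12157 genes reached 1 FPKM, while read depth is unknown. PIK3CA itself stood at 5.38 to 7.23 FPKM in the wild-type libraries, 7.37 to 16.3 in E545K and 4.38 to 7.80 in H1047R, a gene-level value that does not read the mutation. Of 9 epithelial markers, 7 stood at 8.73 FPKM or more in every library, and KRT20 and VIL1 lay between 0.03 and 3.76. Among leukocyte markers CD68 stood at 24.1 to 68.9 FPKM and PTPRC at 0.30 to 1.55, while CD14, ITGAM and FCGR3A stayed at or below 0.85. Endothelial markers stayed at or below 0.45. Fibroblast markers summed to 0.62 to 1.58 FPKM in 25 libraries and to 5.43 in replicate 2 of E545K palbociclib in the second table. There COL1A1 stood at 3.67 and COL1A2 at 1.55, while DCN, LUM and PDGFRB stayed at or below 0.11 throughout that table. Some results that use this library are also given without it. No label says that the 2 replicates of a group came from separate cultures, so p-values measure the spread between these libraries, which may be technical.

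The 10 genes together held between 0.045% and 0.233% of the FPKM sum of a library, and CXCL1 alone held 37.9% to 64.8% of that. In the first table the highest group mean was that of H1047R in palbociclib for CXCL1, CXCL2, CXCL3, CXCL10, CCL5 and CCL20. It was wild type in DMSO for CXCL8 and CCL26. The span from the lowest to the highest group mean was 99.3-fold for CCL20, 26.3-fold for CCL26, 15.9-fold for CXCL2, 12.8-fold for CCL5 and 10.2-fold for CXCL10, against 1.50-fold for CXCL16 and 1.94-fold for CCL28.

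**Figure D1:**
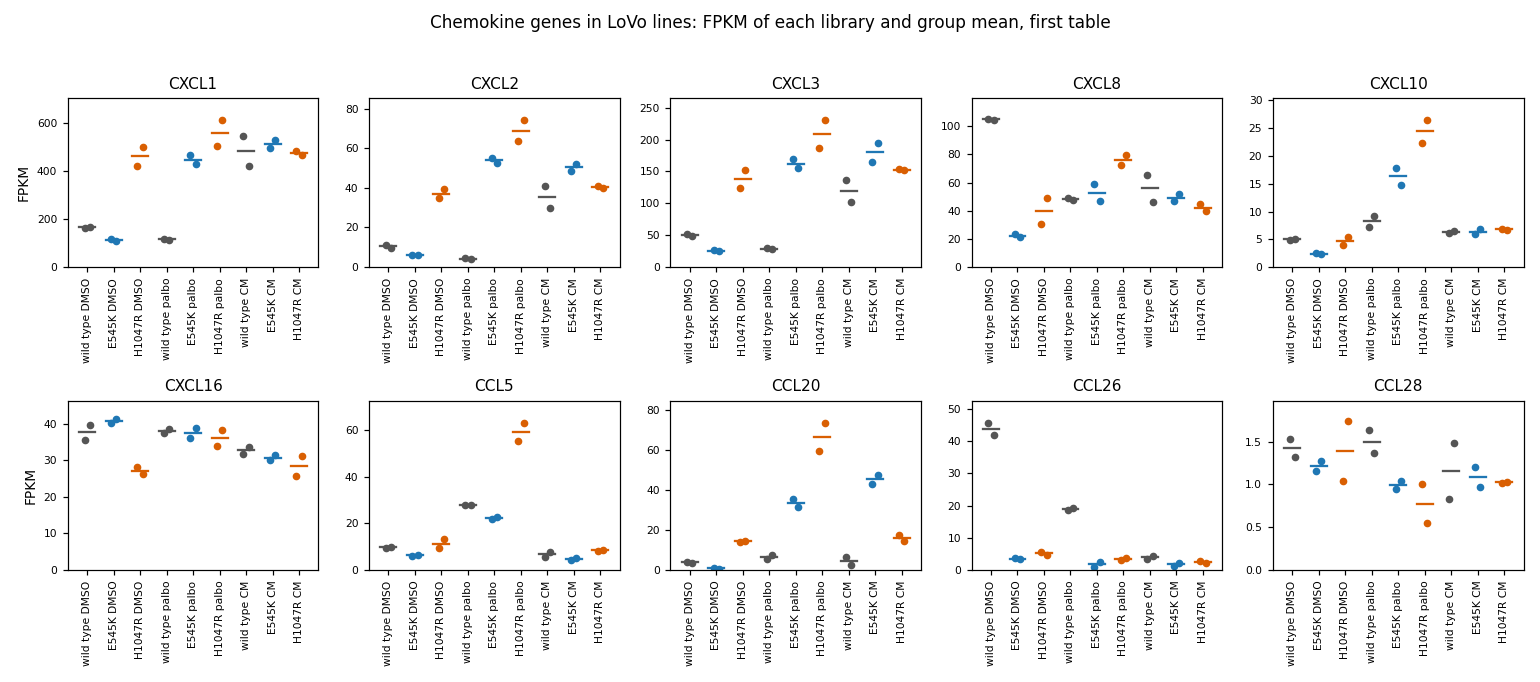
FPKM of the 10 chemokine genes in the first table, 1 panel per gene with its own axis from 0. Points are the 2 libraries of a group and lines the group mean (grey wild type, blue E545K, orange H1047R; palbo is palbociclib, CM conditioned medium). CXCL1 sits between 107 and 168 in 3 groups and between 422 and 615 in the other 6, while CCL26 is above 5.64 in 4 libraries, those of wild type in DMSO and in palbociclib.

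Changes are log2 differences of log2(FPKM + 1). Since the median of all genes lay between -0.27 and 0.29 depending on the comparison, each is given relative to that median and called a relative log2 change. A gene was called where the limma test of the unshifted change gave an adjusted p below 0.05 over all genes of its table. So many genes were called in most comparisons that a count of calls says little about the chemokines by itself, and sizes are given beside it.

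In DMSO, H1047R differed from wild type in 7 of the 10 genes, with 67.4% of all genes called. CXCL1, CXCL2, CXCL3 and CCL20 were higher and CXCL8, CXCL16 and CCL26 lower. Of these, 6 changed by at least 1 in size, as did 9.34% of all genes. In palbociclib, H1047R differed from wild type in 9 (62.5% of all genes called). For E545K, where nothing is read from the count, it was 6 (65.1%). Those called with a change of at least 1 were 6 in H1047R (8.93% of all genes). In E545K they were 5 (8.90%), and again nothing is read from the count. Conditioned medium against DMSO changed 6 genes in wild type (70.5% of all genes called), 8 in E545K (57.3%) and 2 in H1047R (14.6%). Changes of at least 1 were seen in 4 of them in wild type (11.1% of all genes) and in 6 in E545K (7.35%). The response to conditioned medium itself differed from that of wild type in 7 genes for E545K (47.1% of all genes called) and in 5 for H1047R (50.9%). In the second table H1047R differed from E545K under palbociclib in 8 genes (51.6% of all genes called). Among them was CCL26, which passed the filter there only through H1047R libraries. Adding erlotinib changed 5 in E545K (16.2%) and 3 in H1047R (9.36%), and the 2 responses to erlotinib differed in 2 genes (2.17%).

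The median relative log2 change over the 10 genes, set against a median of 0 over all genes, was -0.19 between H1047R and wild type in DMSO. Under palbociclib it was 0.31 between E545K and wild type and 1.17 between H1047R and wild type. With conditioned medium wild type had -0.34, E545K 1.07 and H1047R 0.08. With erlotinib it was -0.42 in E545K and -0.26 in H1047R.

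Because the median of all genes was not at 0, centring each library on its median changed the direction of calls over all genes. Higher calls made up 74.0% of all calls in H1047R against wild type in DMSO and 41.6% after centring. They went from 70.2% to 43.7% in E545K and from 61.5% to 45.1% in H1047R against wild type under palbociclib. With conditioned medium they went from 73.6% to 45.6% in wild type and from 56.6% to 42.9% in E545K, and in the difference in response from 21.3% to 47.4% for E545K and from 20.4% to 57.7% for H1047R. With erlotinib in H1047R they went from 32.1% to 50.8%, and in the difference in response to erlotinib from 41.5% to 55.3%. No chemokine gene called in the main test turned its direction. After centring 5 in place of 3 were lower in H1047R in DMSO, 5 in place of 3 in wild type with conditioned medium and 3 in place of 2 in E545K with conditioned medium. In E545K under palbociclib, where nothing is read from the count, 4 in place of 1 were lower. In the difference in response to conditioned medium between H1047R and wild type, 4 in place of 2 were higher, with CXCL10 (adjusted p 0.0437) and CXCL16 gained.

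In the contrasts that chose the genes, sizes of at least 1 were counted with no test and nothing is read from the counts. They held for 5 of the 10 in E545K against wild type in DMSO (3.41% of all genes), for 4 with palbociclib in wild type (0.777%), for 7 with palbociclib in E545K (4.44%) and for 3 with palbociclib in H1047R (1.85%).

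CXCL1, CXCL2 and CXCL3, close paralogs that signal through CXCR2, fell into 2 separate ranges of libraries in the first table. CXCL1 stood at 164 and 168 FPKM in wild type in DMSO, at 116 and 114 in wild type in palbociclib and at 118 and 107 in E545K in DMSO. It stood at 422 and 501 in H1047R in DMSO, at 467 and 428 in E545K in palbociclib and at 505 and 615 in H1047R in palbociclib. In conditioned medium it stood at 547 and 422 in wild type, at 497 and 529 in E545K and at 484 and 467 in H1047R. The 6 libraries of the first 3 groups thus ended at 168 and the 12 others began at 422, with no library between. In the order of means, the 5 neighbouring pairs among the 6 high groups all overlapped in their libraries. In such bulk RNA, fewer cells that express a gene and less RNA per cell cannot be told apart.

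CXCL2 and CXCL3 split the libraries in the same way. CXCL2 lay between 4.31 and 11.1 FPKM in the 6 low libraries and between 29.6 and 74.1 in the 12 others. Its lowest values were 4.34 and 4.31 in wild type in palbociclib, and its highest 63.7 and 74.1 in H1047R in palbociclib. CXCL3 lay between 25.6 and 51.9 in the low libraries and between 102 and 231 in the others. Its lowest values were 26.1 and 25.6 in E545K in DMSO. Within the high range these genes varied more than CXCL1: of the 5 neighbouring pairs of high groups 1 overlapped for CXCL2 and 3 for CXCL3, and group means ran from 35.4 to 68.9 FPKM for CXCL2 and from 119.6 to 209 for CXCL3.

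In DMSO, H1047R had higher CXCL1 than wild type (461.5 ± 56.0 against 166.0 ± 2.72 FPKM, SD, n = 2), a relative log2 change of 1.20 (SE 0.12, adjusted p 6.69e-08). CXCL2 rose by 1.48 (SE 0.12) and CXCL3 by 1.17 (SE 0.13). In E545K in DMSO the 3 genes stood below wild type, with 113 against 166 FPKM for CXCL1, 6.11 against 10.4 for CXCL2 and 25.8 against 50.4 for CXCL3. The 2 mutant lines therefore lay on opposite sides of wild type before treatment.

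With palbociclib E545K lay above wild type. CXCL1 stood 3.97-fold above its DMSO mean there, CXCL2 8.81-fold and CXCL3 6.29-fold. In wild type the same 3 genes stood at 0.694, 0.415 and 0.576 of their DMSO means, with no overlap of libraries. In H1047R, which was high already, they stood at 1.21, 1.86 and 1.51 times DMSO. Under palbociclib CXCL2 in E545K exceeded wild type 12.5-fold (53.9 ± 2.04 against 4.33 ± 0.0212 FPKM, SD, n = 2), a relative log2 difference of 3.16. In H1047R it exceeded wild type 15.9-fold (3.62, SE 0.12, adjusted p 1.54e-11, which is not independent of the choice of genes). The fit pools the spread over groups, while over all genes H1047R in palbociclib spread most. Its residual SD was 0.232 on the log2 scale, against 0.095 for wild type in palbociclib. The SE and p of contrasts with this group may therefore be too small. The differences for CXCL1 were 1.74 in E545K and 2.17 in H1047R, and those for CXCL3 2.24 and 2.70.

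In conditioned medium these genes were higher than in DMSO in the lines that were low in DMSO. The hours are not stated and no group had medium from cells that were not senescent, so time and medium cannot be told apart here. In wild type CXCL1 rose 2.92-fold (relative log2 change 1.24, SE 0.12, adjusted p 3.28e-08), CXCL2 3.40-fold and CXCL3 2.37-fold, whereas palbociclib itself left them below DMSO in this line. In E545K CXCL1 rose 4.55-fold (2.13, SE 0.12), CXCL2 8.24-fold (2.81, SE 0.12) and CXCL3 6.97-fold (2.70, SE 0.13). In H1047R the folds were 1.03, 1.09 and 1.11, with adjusted p of 0.833, 0.531 and 0.486. The response was larger in E545K than in wild type by 0.88 for CXCL1, 1.43 for CXCL2 and 1.76 for CXCL3 (adjusted p 0.00526, 6.33e-05 and 1.42e-05). This difference contains the DMSO contrast that chose the genes, so these p-values are not independent of the choice. The response was smaller in H1047R than in wild type, with differences of -1.21 for CXCL1, -1.25 for CXCL2 and -0.79 for CXCL3 (adjusted p 6.87e-06, 6.74e-06 and 0.000283). In the 3 lines the libraries in conditioned medium ended at similar levels, from 422 to 547 FPKM for CXCL1.

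**Figure D2:**
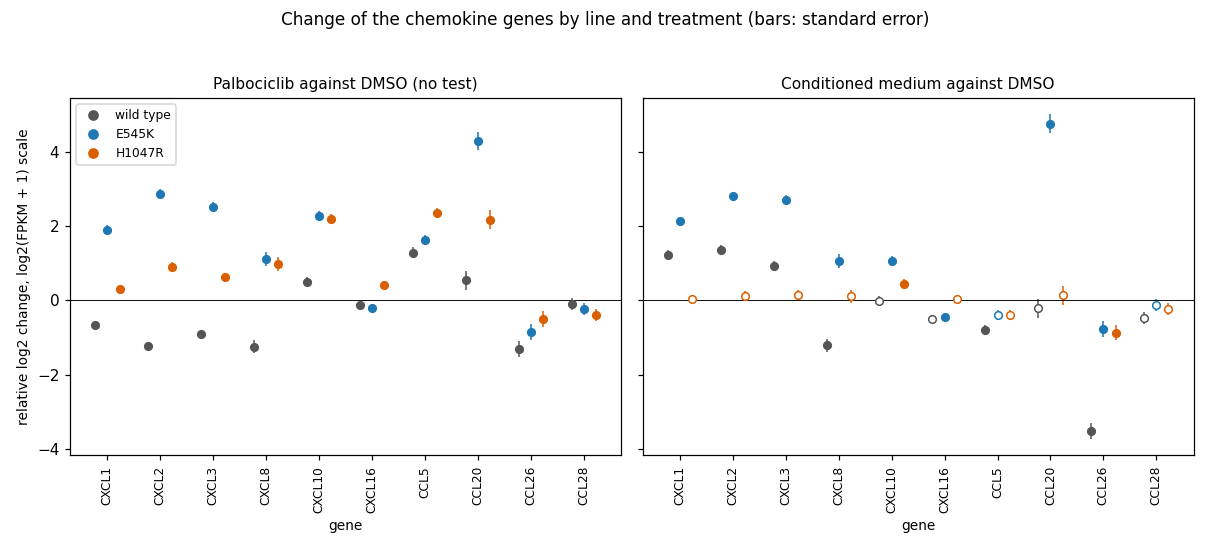
Relative log2 change of each chemokine gene on the log2(FPKM + 1) scale with its standard error, by line, for palbociclib (left, contrasts that chose the genes, no test) and conditioned medium (right). Filled points on the right passed the limma test and open points did not. CCL20 in E545K is the highest point in both panels, at 4.29 and 4.75, and the H1047R points for CXCL1, CXCL2 and CXCL3 in conditioned medium lie between 0.04 and 0.14.

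Erlotinib lowered all 3 genes in E545K. The hours in palbociclib alone are not stated, so erlotinib and time cannot be told apart here. CXCL1 stood at 289 and 266 FPKM in palbociclib and at 152 and 153 with erlotinib (relative log2 change -0.85, SE 0.14, adjusted p 0.00643). CXCL2 stood at 41.4 and 41.2 against 24.8 and 25.3 (-0.69, adjusted p 0.00241), and CXCL3 at 101.1 and 100.9 against 56.3 and 57.2 (-0.82, adjusted p 0.000235). In H1047R, CXCL1 stood at 445 and 640.3 against 426 and 383, which did not pass (adjusted p 0.112) but passed without replicate 1 of H1047R palbociclib (adjusted p 0.000364). CXCL2 there stood at 56.3 and 53.1 against 64.7 and 51.9 (adjusted p 0.594). CXCL3 fell by 0.29 (157.6 and 151 against 130.1 and 116, adjusted p 0.0147), a call lost without replicate 2 of H1047R with erlotinib (adjusted p 0.121).

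The response to erlotinib differed between the lines for CXCL2 (0.81, SE 0.13, adjusted p 0.0241) and CXCL3 (0.53, SE 0.08, adjusted p 0.0269). Without any 1 of the 4 E545K libraries the adjusted p was 0.118 to 0.125 for CXCL2 and 0.122 to 0.148 for CXCL3. Without replicate 1 of H1047R with erlotinib it was 0.0532 and 0.103, and without replicate 2 it was 0.0531 for CXCL3. The difference for CXCL1 was 0.49 (adjusted p 0.285), and 0.75 (0.00333) without replicate 2 of H1047R palbociclib. The E545K call for CXCL1 was lost without replicate 1 of palbociclib (adjusted p 0.0572) or either library with erlotinib (0.0551 and 0.0547).

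Under palbociclib in the second table H1047R had more of the 3 genes than E545K, by 0.98 for CXCL1 (SE 0.14, adjusted p 0.00082), 0.44 for CXCL2 and 0.65 for CXCL3. The 3 transcripts are similar: in GENCODE v29, 5.73% of the 50-base windows of CXCL1 recur in CXCL2 and 0.573% in CXCL3, while no window of 100 bases recurs. How reads shared by them were counted is not given in the sources used here. With the 3 summed, every call of each of them in the 8 comparisons tested in the first table held, and 3 calls in the second table were lost, those of CXCL3 with erlotinib in H1047R (adjusted p 0.0754) and of CXCL2 and CXCL3 for the difference in response (0.145).

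CXCL8, the interleukin-8 gene and a strong neutrophil attractant, did not follow its neighbours on chromosome 4 in the first table. In the second table it went with them, with r on the log scale of 0.99 to CXCL1, 0.93 to CXCL2 and 0.97 to CXCL3 over 8 libraries that share line and treatment. It stood highest in wild type in DMSO, at 104.9 and 104.8 FPKM, and lowest in E545K in DMSO, at 23.2 and 21.2. The remaining values were 30.5 and 49.0 in H1047R in DMSO, 48.8 and 47.8, 58.7 and 46.6, and 72.2 and 79.9 in palbociclib in wild type, E545K and H1047R. In conditioned medium they were 65.4 and 46.3, 46.6 and 51.8, and 44.6 and 39.6 in the same order. Outside wild type in DMSO no library of the first table went above 79.9 FPKM.

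H1047R in DMSO therefore had less CXCL8 but more CXCL1 than wild type (CXCL8 -1.67, SE 0.18, adjusted p 7.13e-06). Conditioned medium lowered CXCL8 in wild type (55.9 ± 13.5 against 104.8 ± 0.099 FPKM, SD, n = 2, relative log2 change -1.21, SE 0.18, adjusted p 0.000366) and raised it in E545K (49.2 ± 3.66 against 22.2 ± 1.44, 1.07, SE 0.18, adjusted p 0.000103). In H1047R it did not pass (0.11, adjusted p 0.715). The difference in response from wild type was 2.26 in E545K (adjusted p 2.02e-05) and 1.31 in H1047R (adjusted p 0.00375). Under palbociclib wild type and E545K had overlapping CXCL8, while H1047R had more than wild type (0.55, SE 0.18, adjusted p 0.00639).

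The ratio of CXCL1 to CXCL8 shows how far these genes went apart. It was 1.56 and 1.60 in wild type in DMSO and 2.38 and 2.39 in wild type in palbociclib. It was 5.08 in both libraries of E545K in DMSO, and between 7.00 and 13.8 in every other library of the first table. In conditioned medium wild type moved to 8.36 and 9.10. In the second table it lay between 5.71 and 7.70.

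**Figure D3:**
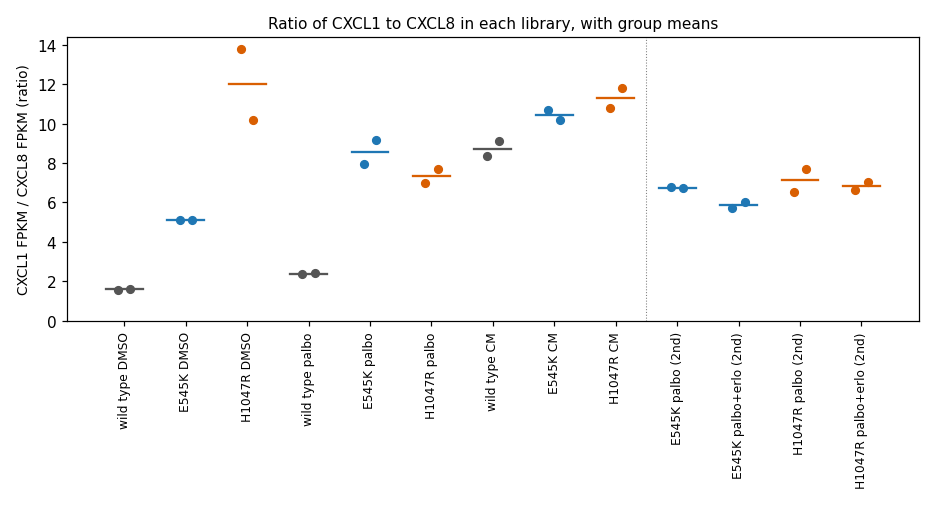
Ratio of CXCL1 FPKM to CXCL8 FPKM in each library (points) with group means (lines), axis from 0; groups right of the dotted line belong to the second table. Wild type in DMSO and in palbociclib sits at 1.56 to 2.39, E545K in DMSO at 5.08, and all other groups of the first table at 7.00 or more.

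Erlotinib lowered CXCL8 in E545K from 42.7 and 39.6 to 26.7 and 25.5 FPKM (-0.63, SE 0.11, adjusted p 0.00627). In H1047R it stood at 68.0 and 83.1 against 64.1 and 54.3 (adjusted p 0.0759). The E545K call was lost without replicate 1 of palbociclib (adjusted p 0.0573) or replicate 2 with erlotinib (0.06), and CXCL8 in H1047R passed without replicate 1 of palbociclib (0.00592). Under palbociclib H1047R had more CXCL8 than E545K (0.90, SE 0.11, adjusted p 0.000273).

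**Figure D4:**
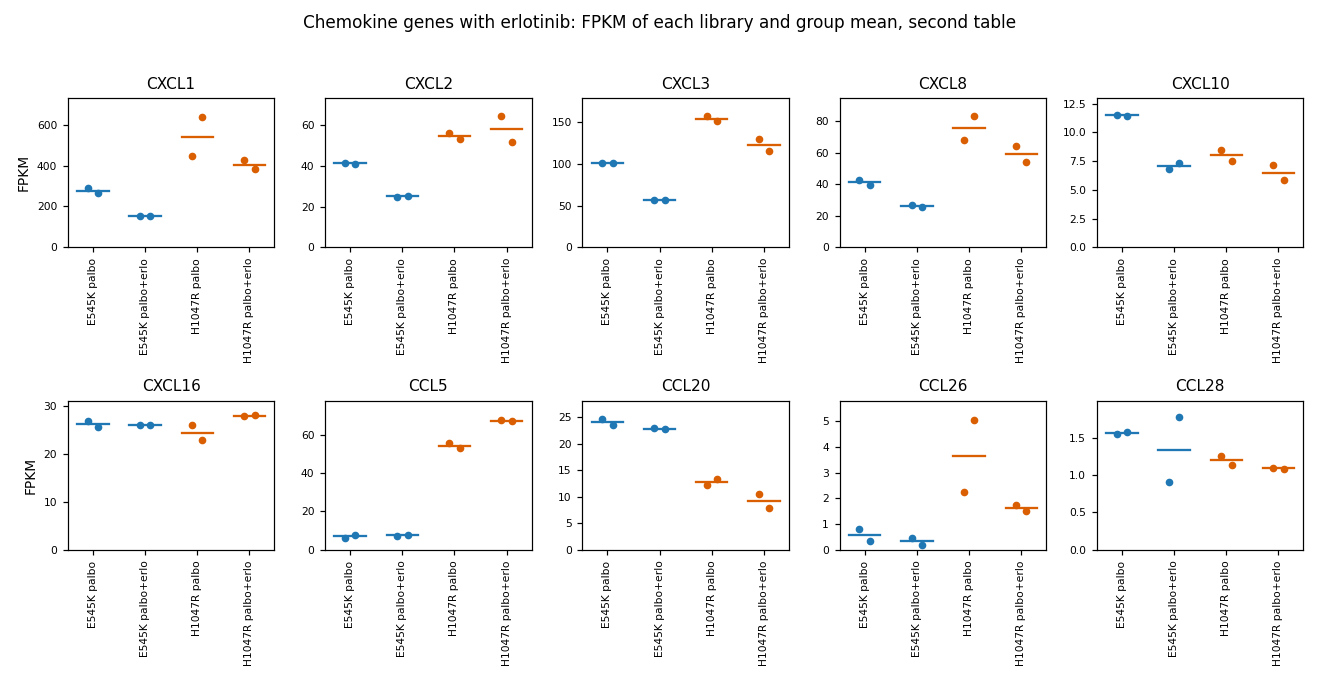
FPKM of the 10 chemokine genes in the second table, 1 panel per gene with its own axis from 0. Points are the 2 libraries of a group and lines the group mean (blue E545K, orange H1047R; palbo is palbociclib, erlo erlotinib). With erlotinib E545K drops from 266 and 289 to 152 and 153 for CXCL1, and CCL5 is at 53.0 to 67.6 in H1047R against 6.45 to 7.78 in E545K.

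CXCL10 and CCL5, which attract T cells and are known interferon-induced genes, were highest in palbociclib in every line. CXCL10 stood at 4.83 and 5.12 FPKM in wild type, 2.52 and 2.28 in E545K and 4.03 and 5.44 in H1047R in DMSO. In palbociclib it stood at 7.30 and 9.21, 17.8 and 14.9, and 22.4 and 26.5. These groups did not overlap in any line, and the means in palbociclib were 1.66, 6.80 and 5.16 times those in DMSO. CCL5 stood at 9.50 and 9.92, 6.07 and 6.13, and 9.31 and 13.1 in DMSO, and at 27.8 in both libraries, 21.96 and 22.45, and 55.3 and 63.1 in palbociclib, which is 2.86, 3.64 and 5.28 times DMSO.

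Under palbociclib CXCL10 in E545K stood 0.70 above wild type, and H1047R exceeded wild type by 1.37 (SE 0.13, adjusted p 3.21e-07). CCL5 was higher in H1047R (0.97, SE 0.14, adjusted p 1.09e-05). In E545K it stood below wild type (-0.51), and the libraries did not overlap. In DMSO neither gene passed between H1047R and wild type (adjusted p 0.659 and 0.283). CXCL10 passed there after quantile normalization (0.00226, change -0.53) and after median-centring of each library (0.0157). Without replicate 1 of H1047R in DMSO that of CCL5 became 0.0208, at a relative log2 change of 0.11 against -0.09 with it.

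Conditioned medium did not bring CCL5 to its level in palbociclib. It stood at 5.50 and 7.70 FPKM in wild type, 4.32 and 4.95 in E545K and 8.18 and 8.39 in H1047R, below the DMSO libraries of the same line in each. The test passed in wild type (-0.80, SE 0.14, adjusted p 0.0042) but not without replicate 1 of conditioned medium (0.0886). It gave adjusted p of 0.0501 in E545K (0.0104 after quantile normalization) and 0.0833 in H1047R (0.0138 without replicate 1 of H1047R in DMSO). CXCL10 lay between 5.88 and 6.90 in conditioned medium in all 6 libraries. It rose in E545K (1.07, SE 0.13, adjusted p 5.76e-06), more than in wild type (difference 1.06, adjusted p 0.00226). In H1047R it rose by 0.45 (adjusted p 0.0338), a call lost without replicate 1 of DMSO (0.229) or either library in conditioned medium (0.16 and 0.122).

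In the second table the T cell attractants separated the mutant lines. CCL5 stood at 55.7 and 53.0 FPKM in H1047R and at 6.45 and 7.58 in E545K in palbociclib, 7.75-fold apart. The relative log2 difference was 2.83 (SE 0.08, adjusted p 1.28e-07), and 2.94 without the E545K replicate 2 that had more COL1A1 and COL1A2. CXCL10 was lower in H1047R (8.47 and 7.54 against 11.5 in both E545K libraries, -0.43, SE 0.10, adjusted p 0.00339). In the first table, E545K in palbociclib had 21.96 and 22.45 of CCL5, and H1047R had more CXCL10 than E545K (22.4 and 26.5 against 17.8 and 14.9). The order of the lines for CXCL10 thus differed between the tables, which were normalized separately and may differ in hours and clone.

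Erlotinib lowered CXCL10 in E545K, from 11.5 in both libraries to 6.84 and 7.35 (-0.62, SE 0.10, adjusted p 0.00428). In H1047R it stood at 8.47 and 7.54 against 7.13 and 5.88 (adjusted p 0.113). CCL5 rose in H1047R to 67.6 and 67.1 (0.34, SE 0.08, adjusted p 0.0416), a call lost without replicate 2 of palbociclib (0.0756) or either library with erlotinib (0.172 and 0.21). In E545K it stood at 6.45 and 7.58 against 7.31 and 7.78 (adjusted p 0.436).

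CCL20, an attractant of CCR6-bearing dendritic and T helper 17 cells, had the widest span. It stood at 0.78 and 0.56 FPKM in E545K in DMSO, at 4.07 and 3.28 in wild type and at 14.1 and 14.3 in H1047R. In palbociclib it stood at 5.55 and 7.51 in wild type, 35.6 and 31.4 in E545K and 59.6 and 73.5 in H1047R. In conditioned medium it stood at 6.35 and 2.32 in wild type, 43.3 and 47.4 in E545K and 17.5 and 14.3 in H1047R. The groups in DMSO did not overlap, nor did those in palbociclib.

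In DMSO CCL20 was higher in H1047R than in wild type (1.44, SE 0.25, adjusted p 3.21e-05). Its mean in palbociclib was 1.78, 50 and 4.69 times that in DMSO in wild type, E545K and H1047R. Under palbociclib E545K had 5.13-fold more than wild type (2.00), while H1047R had 10.2-fold more (3.08, SE 0.25, adjusted p 8.8e-08). Conditioned medium raised it 67.6-fold in E545K (4.75, SE 0.25, adjusted p 2.21e-09), and this response exceeded that of wild type by 4.94 (SE 0.36, adjusted p 2.48e-07). These folds start from a mean of 0.67 FPKM, where the added 1 in the log scale makes the log2 change smaller than the fold.

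In wild type the 2 libraries in conditioned medium went opposite ways for CCL20 (6.35 and 2.32 against 4.07 and 3.28 in DMSO). The test gave an adjusted p of 0.779, with 0.0291 and a change of -0.79 without replicate 1, and 0.00564 and 0.38 without replicate 2. In H1047R the adjusted p was 0.748. The response of H1047R did not differ from that of wild type by the test (adjusted p 0.898, and 0.0386 without replicate 1 of wild type in conditioned medium).

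In the second table CCL20 was lower in H1047R than in E545K under palbociclib (12.2 and 13.4 against 24.7 and 23.4 FPKM, -0.82, SE 0.11, adjusted p 0.000397), the opposite order to the first table. With erlotinib it stood at 22.9 and 22.7 in E545K (adjusted p 0.719) and at 10.6 and 7.84 in H1047R (-0.41, SE 0.11, adjusted p 0.048). The H1047R call was lost after quantile normalization (0.06), median-centring (0.0601), and without replicate 2 of H1047R palbociclib (0.0982) or of H1047R with erlotinib (0.22).

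CCL26, the eosinophil attractant, marked the wild-type line. Wild type had 45.7 and 41.9 FPKM in DMSO and 18.5 and 19.2 in palbociclib, while the other 14 libraries of the first table lay between 0.90 and 5.64. Wild type in conditioned medium belonged to these, at 3.33 and 4.28. In DMSO E545K stood at 3.53 and 3.20 and H1047R at 5.64 and 4.68.

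The difference of H1047R from wild type was -3.13 in DMSO (SE 0.21, adjusted p 2.64e-08) and -2.30 in palbociclib (SE 0.21, adjusted p 4.96e-07). That of E545K in palbociclib was -3.15, with no test. Conditioned medium lowered CCL26 in wild type to 0.0869 of its DMSO mean (-3.52, SE 0.21, adjusted p 6.13e-09). It fell in E545K (-0.77, adjusted p 0.00866) and H1047R (-0.86, adjusted p 0.0145) from means of 3.37 and 5.16 FPKM. The response differed from wild type by 2.73 in E545K (adjusted p 1.25e-05) and 2.65 in H1047R (adjusted p 1.72e-05).

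The smaller calls for CCL26 rested on single libraries. In E545K the call was lost without replicate 1 of DMSO (0.0504) or of conditioned medium (0.106), and in H1047R without replicate 1 of DMSO (0.0772) or either library in conditioned medium (0.0583 and 0.107). CCL26 in the second table was at 0.80 and 0.34 FPKM in E545K and at 2.24 and 5.02 in H1047R in palbociclib. The relative log2 difference of CCL26 was 1.55 (SE 0.27), and 1.34 without the E545K replicate 2 that had more COL1A1 and COL1A2. This difference is given with no p. CCL26 reached 1 FPKM in the second table only in H1047R libraries, and it passed the filter through them. With erlotinib it stood at 0.47 and 0.19 in E545K (adjusted p 0.61) and at 1.74 and 1.49 in H1047R (adjusted p 0.113, and 0.00313 without replicate 1 of H1047R palbociclib).

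CXCL16 and CCL28 moved least. CXCL16 lay between 25.7 and 41.4 FPKM in the first table and between 22.9 and 28.1 in the second. It was lower in H1047R than in wild type in DMSO (-0.72, SE 0.09, adjusted p 0.000439) and fell in E545K in conditioned medium (-0.44, SE 0.09, adjusted p 0.00171). In the other comparisons tested it did not pass. In conditioned medium in wild type it passed after quantile normalization (0.00459) and median-centring (0.000502) and without replicate 1 of DMSO (0.0467). Without replicate 1 of H1047R palbociclib in the second table it was higher with erlotinib in H1047R (0.32, adjusted p 0.00611). The difference in response to conditioned medium between H1047R and wild type (0.52, adjusted p 0.119) passed after quantile normalization (0.0389), after median-centring (0.00621) and without replicate 1 of H1047R in conditioned medium (0.0249). CCL28 lay between 0.55 and 1.74 FPKM in the first table and between 0.91 and 1.77 in the second, close to the limit of the filter. Its 1 call was in H1047R against wild type under palbociclib (-0.60, SE 0.16, adjusted p 0.0146), lost without replicate 1 of wild type (0.0955) or replicate 2 of H1047R in palbociclib (0.144). After quantile normalization or median-centring it passed in 2 more comparisons as a lower level, the difference of H1047R from wild type in DMSO and conditioned medium in wild type (adjusted p 0.00122 to 0.0345).

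Pathway genes were read from lists, and their counts of calls stand beside the share of all genes called in the same comparison, which is 62.5% for H1047R against wild type under palbociclib and, with conditioned medium, 70.5% (wild type), 57.3% (E545K) or 14.6% (H1047R). Of 38 other chemokine ligands, the first table had 6 with a group mean of 1 FPKM or more and the second had 11, of which 7 passed the filter and CCL3, CCL3L1 and CCL4L2 came from replicate 2 of E545K palbociclib alone. Of 23 receptors 2 reached that mean in the first table, CXCR4 and CCR4. CXCR4, the receptor of CXCL12, stood at 3.25 and 4.06 FPKM in wild type in DMSO and was lower in H1047R (-0.74, adjusted p 0.0152). Of the 2 receptors 0 rose and 2 fell in conditioned medium in wild type. CXCR4 fell in conditioned medium in all 3 lines (wild type -1.33, E545K -0.58 and H1047R -0.54). CXCL11, a CXCR3 ligand like CXCL10, rose in conditioned medium in wild type (0.65, adjusted p 4.1e-05) and E545K (0.87, adjusted p 8.54e-05). In conditioned medium 2 of the 6 rose and 2 fell in wild type (1 and 3 after centring), 2 rose and 1 fell in E545K and 0 passed in H1047R (2 at an unadjusted p below 0.05). In the second table CXCL11 stood at 33.4 and 32.4 in E545K against 5.97 and 5.07 in H1047R (-2.34, adjusted p 2.82e-07).

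Of 13 NF-κB subunits and inhibitors, 9 were higher and 0 lower in H1047R than in wild type under palbociclib, or 8 and 1 after median-centring. As a description, 6 were higher and 1 lower in E545K (5 and 3 after centring), against 65.1% of all genes called. Conditioned medium raised 7 and lowered 1 of them in E545K, raised 3 and lowered 3 in wild type (3 and 9 after centring), and raised 4 and lowered 1 in H1047R. The called share of 9 in 13 lies near the 62.5% of all genes. Their median relative change was 0.48 in H1047R and 0.04 in E545K under palbociclib. NFKB1, which encodes p105 and p50, lay between 7.71 and 10.6 FPKM in the 6 libraries where CXCL1 was low and between 20.6 and 35.8 in the 12 others, the same division as CXCL1, CXCL2 and CXCL3. This division was seen after the values were known. NFKB1 was higher in H1047R than in wild type in DMSO (1.06) and palbociclib (1.63), and rose in conditioned medium in wild type (1.12), E545K (1.50) and H1047R (0.45). Its second-table values did not go with CXCL1, at 32.5 and 32.8 in E545K and 30.9 and 31.2 in H1047R in palbociclib. BIRC3, a known NF-κB target, rose in conditioned medium in the 3 lines (1.03, 1.66 and 0.80), and NFKBIZ, an atypical inhibitor, rose in E545K (1.69).

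**Figure D5:**
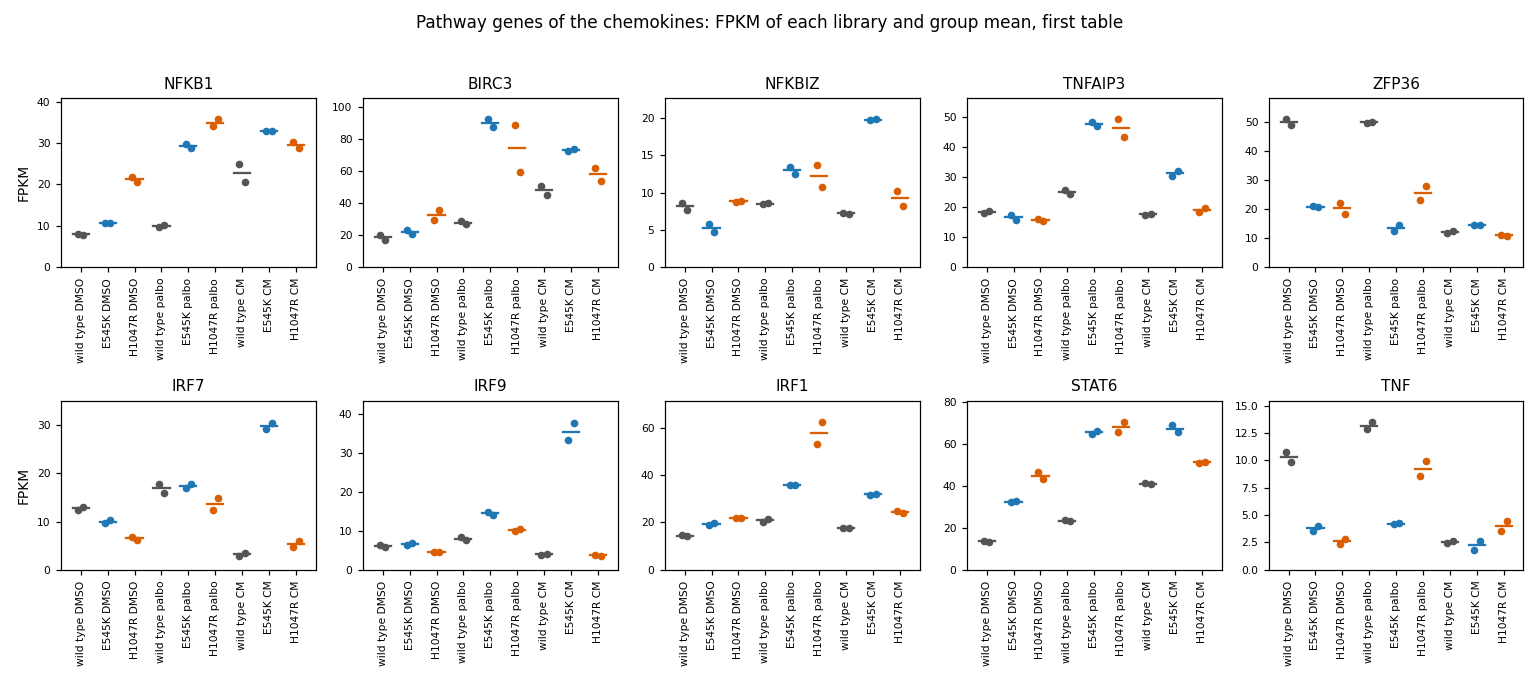
FPKM of 10 pathway genes in the first table, drawn as for the chemokine genes (points libraries, lines group means, axes from 0). NFKB1 is at 7.71 to 10.6 in wild type in DMSO and palbociclib and in E545K in DMSO, and at 20.6 or more elsewhere, and STAT6 is lowest in wild type in DMSO (13.5 and 13.4).

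Of 7 factors that act on chemokine mRNA decay, conditioned medium raised 5 and lowered 2 in wild type (2 and 2 after centring), raised 5 and lowered 1 in E545K and raised 2 and lowered 2 in H1047R, against 70.5%, 57.3% and 14.6% of all genes called. ZFP36 (tristetraprolin) differed most in wild type. Wild type had 50.8 and 48.9 FPKM in DMSO and 49.7 and 50.1 in palbociclib, and between 10.7 and 27.8 in the 14 other libraries of the first table, the division seen for CCL26, singled out after the values were known. It was lower in H1047R than in wild type in DMSO (-1.53) and palbociclib (-1.05) and in E545K in palbociclib (-2.03), and it fell in conditioned medium in wild type (-2.24). ZC3H12A (Regnase-1) rose in conditioned medium in E545K (1.35).

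Of 9 interferon transcription factors, 6 rose and 0 fell in E545K in conditioned medium (57.3% of all genes called), with IRF9 at 33.2 and 37.8 against 6.39 and 6.96 FPKM in DMSO (2.20). In wild type 6 rose and 3 fell (2 and 3 after centring), and IRF7 fell (-1.99). IRF1 under palbociclib stood at 53.0 and 62.6 in H1047R, 35.7 and 35.9 in E545K and 20.3 and 21.4 in wild type, the order of CXCL10 there. The orders were opposite in the second table, with IRF1 higher (0.91) and CXCL10 lower (-0.43) in H1047R than in E545K. STAT6, the factor downstream of interleukins 4 and 13, stood at 13.5 and 13.4 in wild type in DMSO, at 23.4 and 23.3 in wild type in palbociclib and at 32.3 or more in the 14 libraries with low CCL26. It was higher in H1047R than in wild type in DMSO (1.41). It rose in conditioned medium in wild type (1.25). IL4R rose there as well (1.05).

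Of 21 inducing cytokines and their receptors, the first table had 19 that could be tested and the second had 17. Conditioned medium raised 11 and lowered 4 in wild type (10 and 8 after centring) and raised 5 and lowered 8 in E545K (5 and 12), against 70.5% and 57.3% of all genes called. TNF fell in wild type (2.45 and 2.61 against 10.7 and 9.84 FPKM, -1.97, adjusted p 3.39e-08). IL1B fell in E545K (-1.13) and H1047R (-0.70). Under palbociclib in the second table IL1A (2.78) and IL1B (2.57) were higher in H1047R. Of 7 genes that shed or cleave chemokines, 6 were tested. Conditioned medium raised 2 in each line and lowered 2 in E545K. In wild type this was 1 and 1 after centring. Under palbociclib in the second table MMP7 was higher in H1047R than in E545K (3.20, adjusted p 4.84e-06).

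The genes whose levels over the 18 libraries of the first table were most like each chemokine were sought among 12314 genes. These r describe libraries that fall into groups, so they carry no test. For CCL5 they were IFNL1 (r = 0.946), IGFL1 (0.942) and B4GALT5 (0.931), and over the 8 libraries of the second table r was 0.915, 0.939 and 0.981. For CCL26 they were MRPS6 (0.956), SUCLA2 (0.956) and UTS2R (0.944), with 0.713, 0.894 and 0.878 in the second table. TRMO led for CXCL1 (0.965), CXCL2 (0.971) and CXCL3 (0.966), but r was -0.64, -0.674 and -0.542 in the second table. For CCL20 AVEN led (0.954, and 0.783 in the second table), for CXCL10 IL32 (0.919, and -0.563), and for CXCL8 TCEAL1 (0.79, and -0.41). MIGA2 led for CXCL16 (0.913, and -0.085) and IKZF3 for CCL28 (0.921, and 0.077).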

How the data were processed

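RNA was sequenced from LoVo lines in 26 libraries, and the deposited values are FPKM per gene in 2 tables that the authors normalized separately, per the file headers. The submitters' processing notes name HISAT2 2.1.0, Bowtie2 2.3.4.3, RSEM 1.3.1, DESeq2 1.4.5 and the build GRCh38, without their roles. Low values did not fall on whole reads (37.9% and 32.4% of them came within 0.15 of whole multiples), so reads were not recovered and depth is unknown. Groups come from the sample labels.

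Genes at 1 FPKM or more in at least 2 libraries were tested as log2(FPKM + 1) with limma 3.58.1 (R 4.3.3), with 1 coefficient per group, a trended variance, and Benjamini-Hochberg adjustment over all genes of a table. A fold change on this scale understates the change of low genes. Of 18 comparisons 12 were tested and 6 described. E545K against wild type under palbociclib, planned as a test and counted among the 12, is printed without p because the choosing contrasts add up to it. The members and lists were chosen with earlier results of these data known. Named list genes are the 3 with the largest relative change among those called in a list and comparison, plus genes singled out as stated. The main fit did not pair libraries by replicate number. Deviations of same-numbered libraries correlated between -0.56 and 0.55 in the first table and between -0.10 and 0.03 in the second. Of 36 combinations of groups in the first table, 15 lay above 0.1 and 6 below -0.1. Whether some groups shared a batch cannot be told from these values. Alternatives were a pseudocount of 0.1, no filter, quantile normalization, median-centring, TPM scaling, a replicate block, only the groups compared, leaving out each library, and summing CXCL1, CXCL2 and CXCL3. Promoters were read from RefSeq. Figures were drawn with matplotlib 3.10.9.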

Additional observations from a re-analysis of the deposited data

Results flagged for a closer look

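The response to conditioned medium differed between lines by the limma test of the difference, for 7 chemokine genes between E545K and wild type. That difference contains the DMSO contrast that chose the genes, so its calls are not independent of the choice. On the relative log2 scale E545K minus wild type was 0.88 for CXCL1, 1.43 for CXCL2, 1.76 for CXCL3, 2.26 for CXCL8, 1.06 for CXCL10, 4.94 for CCL20 and 2.73 for CCL26. The difference for CCL26 stands for a smaller fall in E545K, which started from 3.37 FPKM in place of 43.8 FPKM. H1047R minus wild type was -1.21 for CXCL1, -1.25 for CXCL2, -0.79 for CXCL3, 1.31 for CXCL8 and 2.65 for CCL26.

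The response to erlotinib differed between H1047R and E545K by the same test for CXCL2 (0.81) and CXCL3 (0.53). Both calls were lost without the filter on low values (limma, adjusted p 0.0758 and 0.07) and with CXCL1, CXCL2 and CXCL3 summed (0.145). They also depended on single libraries, as given above.

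With palbociclib, CXCL1, CXCL2, CXCL3 and CXCL8 were lower than in DMSO in both wild-type libraries and higher in both libraries of each mutant line. E545K minus wild type was 2.55 for CXCL1, 4.09 for CXCL2, 3.42 for CXCL3 and 2.35 for CXCL8. H1047R minus wild type was 0.97 for CXCL1, 2.14 for CXCL2, 1.53 for CXCL3 and 2.22 for CXCL8. These contrasts chose the genes, and the difference was not tested. How many of all genes meet the same rule was not counted, so nothing particular to the chemokines is read from it.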

How the results depend on the processing

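Of 1476 recomputed values for the 120 tested combinations of gene and comparison, 1378 stayed on the same side of the threshold, 52 lost the call and 46 gained it. Direction was compared only for values called in the main test, and 0 of these turned. Some values that were not called did change direction. With a pseudocount of 0.1 the median relative change over the 10 genes went from -1 to -1.16 for E545K against wild type in DMSO and from 2.06 to 2.24 for the palbociclib response of E545K minus wild type. Without the filter the first went to -0.84. With quantile normalization the palbociclib response of H1047R minus wild type went from 1.29 to 1.16. The 2 genes called with conditioned medium in H1047R became 1 without the filter and 1 with only the groups compared. The 3 called with erlotinib in H1047R became 1 without the filter and 0 with only the groups compared (limma, 5 at an unadjusted p below 0.05), and the 2 of the difference in response became 0 without the filter (3 unadjusted). With the replicate number as a block, in which libraries are known to share only a number, the 3 called with erlotinib in H1047R became 1. Each other count stayed or gained 1 gene. The cause of these shifts was not tested.

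Leaving out 1 library at a time, the median palbociclib change in H1047R ranged from 0.58 to 0.91, and the difference in palbociclib response from 1.91 to 2.20 for E545K and from 1.13 to 1.44 for H1047R. Counts ranged from 0 to 2 for conditioned medium in H1047R (0 without either library in conditioned medium, with 2 and 3 at an unadjusted p), from 3 to 5 for erlotinib in E545K, from 0 to 7 for erlotinib in H1047R (0 without replicate 2 with erlotinib, with 4 unadjusted, and 7 without replicate 1 of palbociclib) and from 0 to 4 for the difference in response to erlotinib (2 to 4 unadjusted where 0). Without the E545K library that had more COL1A1 and COL1A2, the difference in response to erlotinib was 0.82 for CXCL2 and 0.53 for CXCL3. With 2 libraries a group, a lone library is assumed to vary like the others.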

Other observations

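Other chemokine and cytokine genes separated the mutant lines in the second table. CX3CL1, the membrane-bound chemokine fractalkine, stood at 0.02 FPKM in the 4 E545K libraries and at 3.71 and 2.78 in H1047R in palbociclib, and it rose with erlotinib in H1047R to 6.01 and 5.56 (limma, relative log2 change 0.72, adjusted p 0.0113). CCL22, an attractant of regulatory T cells, stood at 1.12 and 1.26 in E545K and at 9.77 and 5.33 in H1047R in palbociclib (relative log2 difference 1.96, adjusted p 0.000141). IL1B stood at 6.18 and 6.01 in E545K and at 32.4 and 49.3 in H1047R. CXCL5, a CXCR2 ligand like CXCL1, fell with erlotinib in E545K (-0.93, adjusted p 0.00153).

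Replicate 2 of E545K in palbociclib in the second table held 2.40 FPKM of CCL3, 2.62 of CCL3L1, 1.32 of CCL4 and 2.48 of CCL4L2, with COL1A1 at 3.67 and COL1A2 at 1.55. These chemokine genes stood at or below 0.08 in the other 7 libraries of that table. Their part in the results was not tested, beyond the values given without this library.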
